A study of Mus musculus with 3 samples.

Results

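The genes described here encode the subunits of the oxidative phosphorylation complexes that are read from nuclear chromosomes, measured by single-cell RNA sequencing of mouse small-intestinal epithelium. Members were chosen by symbol alone (names beginning Ndufa, Ndufb, Ndufc, Ndufs or Ndufv and a number, Sdha to Sdhd, Uqcr, Cox4 to Cox8 followed by a, b or c, and Atp5). Of 27998 genes, 82 symbols matched, and the 78 with at least 100 unique molecular identifiers (UMIs, one per captured RNA molecule) over the 3 libraries were kept. They comprised 37 members of complex I, 4 of complex II, 8 of complex III, 12 of complex IV and 17 of complex V. *Cox7b2* (1 UMI), *Cox8b* (1), *Cox8c* (3) and *Cox6a2* (91) fell below the limit, whereas the members nearest above it were *Ndufa4l2* (228) and, at a distance, *Atp5s* (3666) and *Cox6b2* (4300). The 13 protein-coding genes of the mitochondrial DNA, whose symbols begin with mt-, were followed beside them.

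In oxidative phosphorylation, complexes I and II pass electrons from metabolites to ubiquinone, complex III passes them to cytochrome c and complex IV to oxygen, and complex V uses the resulting proton gradient to make ATP. Complexes I, III, IV and V are each built from subunits of both genomes, and complex II from nuclear subunits alone. In the intestine, absorptive enterocytes are rich in mitochondria, and tumor cells are known for raised glycolysis beside respiration.

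Each library came from sorted EpCAM+ epithelial cells of 1 C57BL/6 mouse. All mice, WT included, were given 2 doses of 2 mg tamoxifen at 7 to 8 weeks of age. WT was the wild type, *LApc* was *Lgr5*-CreERT2;*Apc* fl/fl, and *LApcL* carried the same alleles together with *Lef1* fl/fl. Cre was expressed from the *Lgr5* locus, hence in intestinal stem cells, so deletion reaches only these cells and their progeny. WT and *LApcL* cells were taken on day 21 and *LApc* cells on day 29; for the Cre mice the time was set by their condition. With 1 library per genotype, genotype cannot be told apart from mouse and library, nor, for *LApc*, from day. No test was therefore run. All intervals are exact 95% intervals that cover counting error only, and a gene was called when the higher level exceeded the lower by at least 25% with the interval of the ratio off 0. Where 3 values stand in a row without names, they belong to WT, *LApc* and *LApcL* in that order, and 2 such values to *LApc* and *LApcL* or, within a library, to crypt cells and the class compared.

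The WT, *LApc* and *LApcL* libraries held 140181087, 79696291 and 191509615 UMIs, and 10138, 9601 and 14394 cells were kept, with medians of 9711.5, 6133 and 10140 UMIs. The *LApc* library stood apart: 17.7% of its barcodes exceeded the limit of 20% mitochondrial UMIs, against 0.541% in WT and 2.38% in *LApcL*. Pairs of libraries shared 120 to 222 cell barcodes. Cell classes were rebuilt by clustering without the members or the mt- genes. Cells with markers of Wnt activity, stem cells or cycling were split into crypt cells (2965 in WT, 2107 in *LApc*, 1810 in *LApcL*) and adenoma-enriched cells, to which WT gave 5 cells, *LApc* 1232 and *LApcL* 8558. The defining markers *Alpi*, *Muc2*, *Lyz1*, *Chga* and *Dclk1* were highest in the enterocyte-like, goblet-like, Paneth-like, enteroendocrine-like and tuft-like classes. Cluster 3, led by *Gsdmc4*, *Car4* and *Dmbt1*, met no marker rule and stays unnamed. Of the targeted genes, *Lef1* stood in adenoma-enriched cells at 21.3 CPM (counts scaled to a common total of UMIs) for *LApc* and 3.43 CPM for *LApcL*. *Apc* was not lower, at 48.9 and 37.3 CPM there against 19.2 CPM in WT crypt cells. The reads come from transcript 3′ ends, so the count of *Apc* does not test the loss of its floxed part. The adenoma transcript *Sox17* also stood at 38.0 CPM in the *LApcL* crypt class, against 1.90 CPM in *LApc* and 0 in WT crypt cells. This was not particular to crypt cells. The other *LApcL* classes outside adenoma-enriched cells held *Sox17* at 22.6 CPM (cluster 3) to 109 CPM (enteroendocrine-like cells).

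Promoters of 8 members are shown because the class or library differences described below turn on their genes. They span 100 bases before to 10 after 1 RefSeq transcript start per gene on GRCm38.p6. They lie on the minus strand except for *Cox7a1* and *Cox7b*, and are printed 5′ to 3′. For *Ndufa5* and *Atp5g2* the stretch lies inside the annotated gene, which begins at 24528013 and at 102672352, so it need not be the main promoter. Capitals mark letters of the sites of nuclear respiratory factor 1 (NRF-1, GCGCATGC), GABP (CCGGAAG) or the estrogen-related receptors (ERR, TCAAGGTCA), on either strand.
Cox7a1, chr7:30184071-30184180: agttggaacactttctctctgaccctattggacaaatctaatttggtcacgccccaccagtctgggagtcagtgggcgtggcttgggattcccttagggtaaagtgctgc
Atp5g2, chr15:102671038-102671147: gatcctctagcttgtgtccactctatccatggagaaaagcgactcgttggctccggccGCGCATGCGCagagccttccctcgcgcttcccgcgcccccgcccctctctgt
Atp5g3, chr2:73911317-73911426: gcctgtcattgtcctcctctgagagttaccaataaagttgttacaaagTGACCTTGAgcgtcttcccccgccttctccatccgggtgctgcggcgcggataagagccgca
Atp5k, chr5:108434390-108434499: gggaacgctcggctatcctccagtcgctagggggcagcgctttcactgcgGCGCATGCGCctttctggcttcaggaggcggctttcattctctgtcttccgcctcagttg
Ndufa5, chr6:24527517-24527626: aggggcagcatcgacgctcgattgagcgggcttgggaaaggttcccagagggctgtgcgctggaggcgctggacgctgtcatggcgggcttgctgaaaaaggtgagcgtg
Uqcr11, chr10:80406812-80406921: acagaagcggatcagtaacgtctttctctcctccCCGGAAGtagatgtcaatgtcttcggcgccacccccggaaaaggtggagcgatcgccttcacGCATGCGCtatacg
Cox7b, chrX:106015600-106015709: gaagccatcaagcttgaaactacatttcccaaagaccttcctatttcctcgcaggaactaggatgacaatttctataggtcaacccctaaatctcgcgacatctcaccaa
Ndufa6, chr15:82354282-82354391: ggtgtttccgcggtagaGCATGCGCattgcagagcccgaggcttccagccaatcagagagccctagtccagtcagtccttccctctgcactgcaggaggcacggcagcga

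NRF-1 and GABP are textbook activators of nuclear respiratory genes, and the ERR proteins act with the Ppargc1 coactivators. In the whole RefSeq windows, 250 bases before to 50 after the start, NRF-1 letters occurred for 10 of the 64 members with a window (15.6%) and for 3.61% of 17492 protein-coding genes. The letters of NRF-1 overlap their own reverse complement, so 1 site can match on both strands. GABP letters occurred for 23.4% of members against 11.9% of all genes, and ERR letters for 3.12% against 0.332%. YY1 letters (AAGATGGC) occurred for 8 members (12.5% against 3.22%), 7 of them in complex I, and all 8 lay 23 to 39 bases after the start. A match describes letters only. *Cox7a1*, *Ndufa5* and *Cox7b* held none of these motifs in their windows. The window of *Ndufa5* does not reach the outer end of its annotated gene, so its letters do not describe a promoter there. *Atp5g2* and *Atp5g3*, which encode the same mature protein, thus showed different letters near the starts used.

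Members differed in abundance within the cells. In WT crypt cells, complex V held 29.8% of the members' UMIs, complex I 28.2%, complex IV 26.5%, complex III 13.2% and complex II 2.34%. The leading member of each was *Atp5g1* (1829 CPM; c-ring of ATP synthase), *Ndufa4* (1728 CPM; named for complex I and now assigned to complex IV), *Cox8a* (2448 CPM; small subunit of complex IV), *Uqcrq* (1441 CPM; small subunit of complex III) and *Sdhb* (522 CPM; iron-sulfur subunit of complex II). By its symbol, *Ndufa4* was counted in complex I in all values by complex. The shares of complexes I and IV, and their order, depend on this. Each molecule is counted once from its 3′ end, so these levels are not scaled by transcript length.

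Together the members made up several percent of all UMIs, and the order of the cell classes was similar in the 3 libraries. Cluster 3 was highest, with 7.45% in WT, 6.40% in *LApc* and 6.39% in *LApcL*. Enterocyte-like cells followed with 6.58%, 5.36% and 5.16%, and crypt cells with 6.07%, 5.26% and 4.99%. Tuft-like cells stood at 5.44%, 4.65% and 4.62%, enteroendocrine-like cells at 4.64%, 3.31% and 3.96%, and goblet-like cells at 3.91%, 2.82% and 3.52%. Adenoma-enriched cells held 3.79% in *LApc* and 4.92% in *LApcL*, so they ranked differently in the 2 libraries. Paneth-like cells lay lowest at 0.815%, 1.81% and 2.37%. Their median depths of 40127, 4567.5 and 8829 UMIs differed most between libraries, and their cells give no reliable comparison. The counting interval of each of these shares reached at most 0.083 percentage points to either side.

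**Figure D1:**
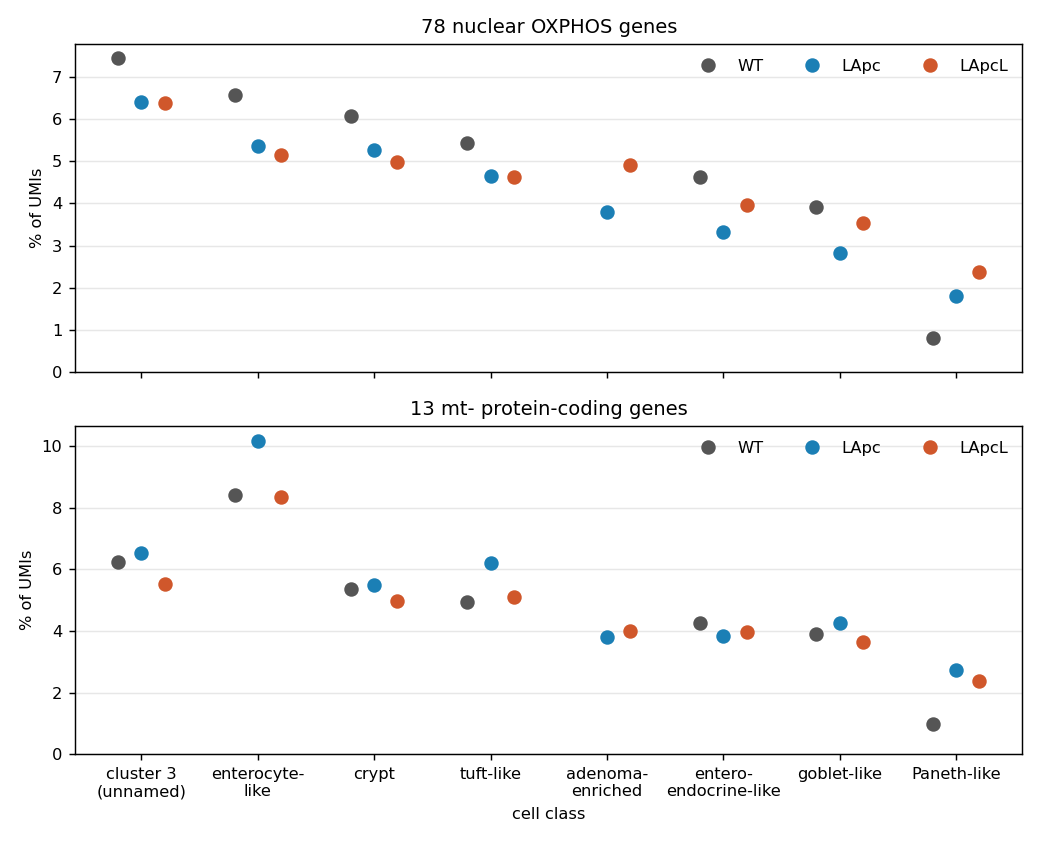
Share of all UMIs (%) held by the nuclear members and by the mt- genes in each cell class, with 1 point per library; the counting intervals are smaller than the points. Cluster 3 and goblet-like cells mark the high and low ends of the nuclear share outside Paneth-like cells, and enterocyte-like cells stand out for the mt- genes.

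Of the 78 members, 75 reached a mean of 10 CPM over classes and libraries, as did 12 mt- genes and 7521 genes in all. Cluster 3 was the highest class for 65 of the 75 in WT, 58 in *LApc* and 66 in *LApcL*, and goblet-like cells the lowest for 72, 65 and 64, with Paneth-like cells left out. The spread was modest: the highest class exceeded the lowest by a median of 1.97-fold in WT, 2.39-fold in *LApc* and 1.88-fold in *LApcL*.

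The first comparison set each mature class against crypt cells of the same library. Enterocyte-like cells lay close to crypt cells in the members' summed level. Over the members, the log2 ratio of summed levels was 0.12 in WT (0.11 to 0.12), 0.03 in *LApc* and 0.05 in *LApcL*. In WT, 9 of 75 members were called higher and 8 lower, both shares below the 32.4% and 44.6% of all genes called so. At a threshold of 1.5-fold, 3 members were called higher and 2 lower, against 25.2% and 36% of all genes. Ribosomal protein genes were lower for 80 of 80. With the ribosomal and mt- genes taken out of the total, the ratio turned to -0.20, with 2 members higher and 28 lower. When cells were classed by marker score in place of clusters it was 0.30, with 38 higher and 2 lower. The shares of all genes were not computed for these 2 settings, so these counts have no background. The direction of the summed ratio from crypt to enterocyte thus depended on the scaling, and its size also on the classes.

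The mitochondrial genome gave another picture. Summed mt- levels in enterocyte-like cells exceeded those in crypt cells by log2 ratios of 0.65 in WT, 0.89 in *LApc* and 0.75 in *LApcL*, and 10 of 12 genes were called higher in every library, where the share of all genes was 26.7%. *mt-Co1*, the catalytic core of complex IV, stood at 9348, 10048 and 8954 CPM among crypt cells and at 19401, 25846 and 20274 CPM among enterocyte-like cells. Its level in enterocyte-like cells was higher in all 3 libraries, with a log2 ratio of 1.05 in WT. The ratio of mt- to nuclear UMIs was 0.883, 1.05 and 0.996 in crypt cells and 1.28, 1.90 and 1.62 in enterocyte-like cells.

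Single members moved far more than the sum. *Cox7a1* (chromosome 7, 30184144 to 30186078, GRCm38) encodes the subunit 7a form of complex IV best known from heart and muscle. In crypt cells it stood at 58.5, 58.9 and 33.2 CPM. Enterocyte-like cells held it at 656, 468 and 398 CPM, with no overlap between the classes. The log2 ratios were 3.49 (3.42 to 3.56), 2.99 (2.89 to 3.10) and 3.58 (3.45 to 3.72). Cluster 3 also held it at 390, 370 and 270 CPM, and adenoma-enriched cells at 30.2 and 35.6 CPM. Its share of the *Cox7a1*, *Cox7a2* and *Cox7a2l* UMIs rose from 3.05% in crypt cells to 23.8% in WT enterocyte-like cells. The general form *Cox7a2* remained the main one in both, at 68.9% and 64.9%. *Cox7a2l*, whose product joins complexes III and IV into supercomplexes, went the other way, from 538, 589 and 599 CPM in crypt cells to 312, 313 and 406 CPM in enterocyte-like cells.

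The 3 genes for subunit c, which makes the rotating ring of ATP synthase, also shifted in their shares. *Atp5g2* (chromosome 15, 102662864 to 102672352) fell from 962, 1022 and 957 CPM in crypt cells to 541, 470 and 558 CPM in enterocyte-like cells, with log2 ratios of -0.83, -1.12 and -0.78. *Atp5g3* (chromosome 2, 73908447 to 73911326) rose from 1049, 1169 and 883 CPM to 1487, 1619 and 1160 CPM, with log2 ratios of 0.50, 0.47 and 0.39. *Atp5g1* was not called in WT, where crypt cells held 1829 CPM and enterocyte-like cells 1518 CPM. Of the subunit c UMIs in WT, *Atp5g3* thus took 27.3% in crypt cells and 41.9% in enterocyte-like cells, and *Atp5g2* 25.05% and 15.3%. Members of such families have near-identical coding sequences and processed copies, so reads that the counting could not place may be missing from any of them.

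**Figure D2:**
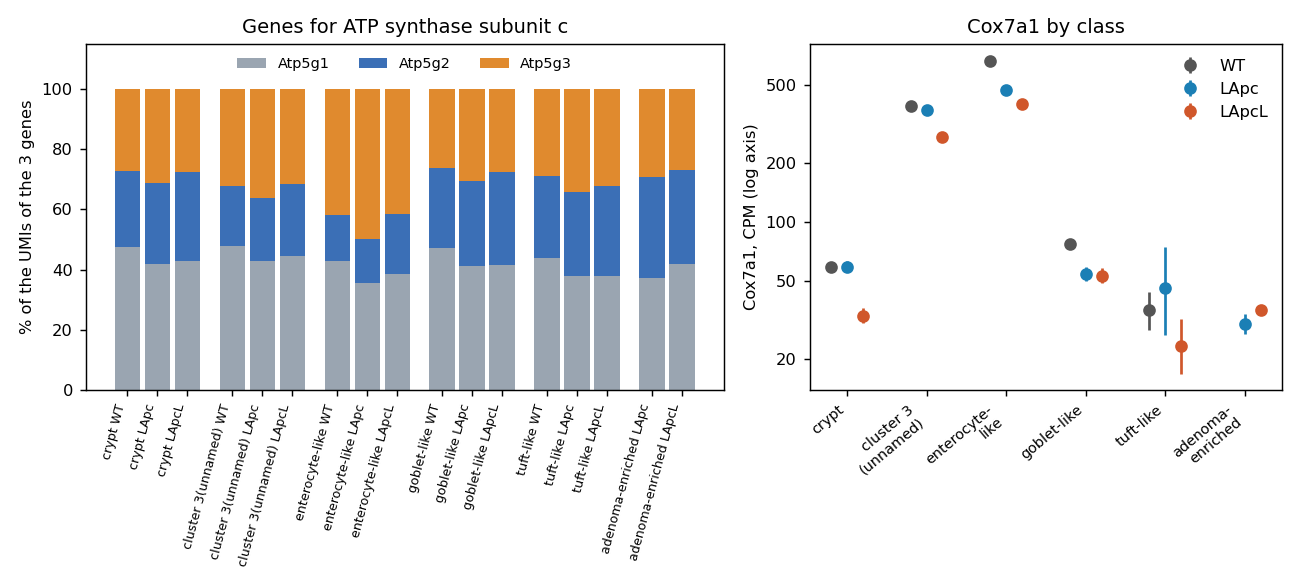
Left, share (%) of subunit c UMIs from *Atp5g1*, *Atp5g2* and *Atp5g3* by class and library; right, *Cox7a1* in CPM on a log axis by class and library, with 95% counting intervals. *Atp5g3* gains and *Atp5g2* loses from crypt to enterocyte-like cells in each library, and *Cox7a1* stands highest in enterocyte-like cells and cluster 3.

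In complex I, *Ndufa1*, a small membrane-arm subunit encoded on the X chromosome, rose from 354, 326 and 299 CPM in crypt cells to 561, 510 and 481 CPM in enterocyte-like cells. *Ndufa6*, an accessory subunit of the matrix arm, rose from 527, 474 and 532 CPM to 807, 724 and 848 CPM. The core iron-sulfur subunit *Ndufs8* fell from 348, 276 and 266 CPM to 233, 165 and 182 CPM. Counted over all 3 libraries, 6 members were called higher in each (*Atp5g3*, *Ndufa1*, *Cox7a1*, *Cox7a2*, *Sdha*, *Ndufa6*) and 6 lower (among them *Ndufa8*, *Ndufc2*, *Atp5g2*, *Cox7a2l*, *Ndufs8*). These are 8% of the members each way. Among all genes, 26.7% were called higher and 37.9% lower in every library, so both shares of the members lay below those of all genes.

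Related lists were read against the same shares of all genes, 32.4% higher and 44.6% lower. In WT enterocyte-like cells, 25 of 39 assembly factors of the complexes were lower than in crypt cells and 3 higher, and 10 of 17 glycolysis and lactate genes were higher and 2 lower. The 14 enzymes of the TCA cycle were split, with 6 higher and 6 lower. Among 15 regulators of mitochondrial gene expression, 3 were higher and 11 lower. The coactivator *Ppargc1a* rose from 7.13 CPM to 38.5 CPM in enterocyte-like cells, a log2 ratio of 2.43. *Esrra*, which encodes an ERR protein, stood at 67.0 and 159 CPM, and was called higher as well. *Tfam*, which packages and transcribes mitochondrial DNA, was lower, at 109 and 31.0 CPM. *Myc* was lower as well, at 32.0 and 3.04 CPM.

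Cluster 3 was the class in which the members stood highest as a block. The log2 ratios of summed levels over crypt cells were 0.30, 0.28 and 0.36, and 26 of 75 members (34.7%) were called higher in every library, against 20.3% of all genes. None was called lower. These values were not recomputed with the ribosomal and mt- genes taken out of the total. In WT the ratio was 0.26 for complex I, 0.37 for complex II, 0.28 for complex III, 0.35 for complex IV and 0.28 for complex V. *Ndufa6* stood at 794, 678 and 761 CPM in cluster 3. *Ndufv3*, an accessory subunit of the NADH-binding module, stood at 371, 337 and 283 CPM in crypt cells and 544, 500 and 461 CPM in cluster 3. Both were higher in cluster 3 in each library, while no mt- gene was called higher there in every library.

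Goblet-like cells were the reverse. Log2 ratios over crypt cells were -0.63, -0.90 and -0.50, and 65 of 75 members (86.7%) were called lower in every library. Genes in general were often lower there, 40% of them in every library. Catalytic and core subunits were among those furthest down. *Sdha*, the flavoprotein of complex II, stood at 269, 211 and 207 CPM in crypt cells and 125, 85.5 and 123 CPM in goblet-like cells. *Uqcrc2*, a core protein of complex III, stood at 384, 292 and 280 CPM and at 182, 116 and 167 CPM. Goblet-like levels lay below crypt levels in each library for both genes. *Ndufa1* and *Ndufv3* moved least, with WT log2 ratios of -0.07 and 0.04, and *Cox7a1* had a WT log2 ratio of 0.40. Of the mt- genes, 11 of 12 were lower in every library.

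In enteroendocrine-like cells, 45 of 75 members were lower than in crypt cells in every library, against 14.6% of all genes, with log2 ratios of the sum of -0.39, -0.67 and -0.33. In tuft-like cells, 15 members were lower in every library (13.7% of all genes) and 5 higher (19%). The 5 were *Ndufa1*, *Ndufs4*, *Cox6c*, *Ndufa6* and *Ndufv3*, of which 4 are complex I accessory subunits. *Ndufa1* stood at 544, 647 and 537 CPM in tuft-like cells, above its crypt level of 354, 326 and 299 CPM in each library. *Atp5g1* lay lower, with log2 ratios of -0.67, -1.17 and -0.84, and so did *Sdhd*, a membrane anchor of complex II, with -0.62, -0.66 and -0.39. In Paneth-like cells 74 of 75 members were lower in every library, where 78.8% of all genes were.

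*Ndufa4l2*, a paralog of *Ndufa4*, was the rarest member, and its level and its share of cells with a UMI were highest in tuft-like cells. There it gave 4 UMIs in WT, 25 in *LApc* and 37 in *LApcL* tuft-like cells, in 3 of 257 cells (1.17%), 14 of 69 (20.3%) and 17 of 314 (5.41%). Its level there was 1.76, 71.8 and 21.6 CPM, against at most 3.38 CPM in any other class, reached by the adenoma-enriched cells of *LApc*. Adenoma-enriched cells gave 33 UMIs in *LApc* and 43 in *LApcL*, from many more cells. WT crypt cells gave 0 UMIs in 2965 cells. The tuft-like class of *LApc* had 69 cells only. *Cox6b2*, the paralog of *Cox6b1* best known from testis, stood highest in crypt cells at 19.4, 14.5 and 20.8 CPM and at 4.22, 1.76 and 7.59 CPM in goblet-like cells.

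The next comparison asked how the members stood in crypt cells of the 3 genotypes. Their share was lower in both Cre libraries than in WT. For *LApc* over WT the log2 ratio of the sum was -0.21 (-0.21 to -0.20), and 15 of 75 members were called lower, against 9.79% of all genes. None was higher. The median over the members was -0.22 and over all genes 0.01. At 1.5-fold, 1 of 75 members was called lower, against 2.81% of all genes. For *LApcL* over WT the ratio was -0.28, and 29 members were lower (16.1% of all genes). The 2 comparisons share the WT library, and 14 members were lower in both. The share of all genes lower in both was not computed. By complex, the *LApc* ratios were -0.20 for complex I, -0.24 for II, -0.20 for III, -0.18 for IV and -0.24 for V.

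*Atp5k* (chromosome 5, 108433244 to 108434448), which encodes subunit e at the dimer interface of ATP synthase, differed most. Crypt cells held it at 899 CPM (WT), 524 CPM (*LApc*) and 605 CPM (*LApcL*), with log2 ratios to WT of -0.78 (-0.82 to -0.74) and -0.57 (-0.60 to -0.54). *Ndufa5*, an accessory subunit of the complex I matrix arm, stood at 561, 405 and 390 CPM, and *Ndufa3*, a membrane-arm subunit, at 544, 390 and 414 CPM. WT was the highest library for all 3 genes. At the other end, *Atp5g3* had a log2 ratio of 0.16 and *Cox7a2l* of 0.13 in *LApc*. In *LApcL*, *Cox7a1* had the lowest ratio of -0.82.

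Depth moved with this comparison. Up to 16000 UMIs per cell, the members' share rose with depth in crypt cells of each library, and *LApc* cells were shallower than WT cells. Among cells with 4000 to 8000 UMIs the share was 5.17% in WT and 5.06% in *LApc*, and among cells with 8000 to 16000 UMIs it was 6.08% and 5.57%. In the latter window the ratio was -0.12, with 2 members higher and 8 lower. The share of all genes was not computed in this window. In *LApcL* the shares were 4.53% and 5.17% in these windows. Depth differs between the libraries themselves, and its part in the result was not tested beyond these values.

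**Figure D3:**
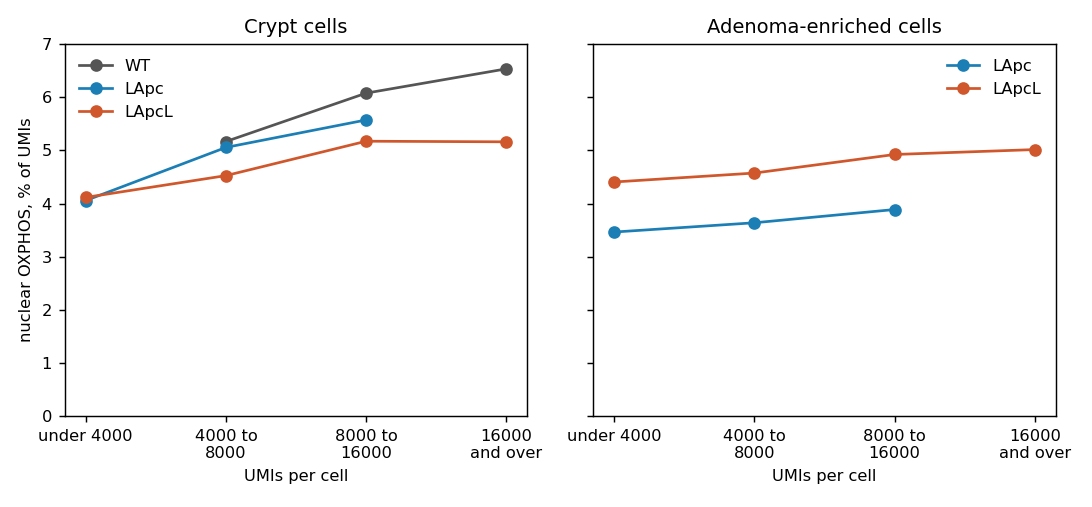
Share (%) of UMIs from the nuclear members in crypt cells and in adenoma-enriched cells, by UMIs per cell and library. The WT and *LApc* crypt shares lie close at 4000 to 8000 UMIs, whereas in adenoma-enriched cells *LApcL* lies above *LApc* in each window that both libraries fill.

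Over all depths, lower levels in *LApc* than in WT were not particular to crypt cells. The log2 ratio of the sum was -0.29 in enterocyte-like cells, with 34 members lower (27.3% of all genes), and -0.47 in goblet-like cells, with 64 lower (26.8%). It was -0.48 in enteroendocrine-like cells, with 53 lower (19.3%), -0.23 in tuft-like cells and -0.22 in cluster 3. Paneth-like cells gave 1.15, and their depth fell from 40127 UMIs in WT to 4567.5 UMIs in *LApc*. Depth differed in other classes too. Within 4000 to 8000 UMIs, enterocyte-like cells held 5.62% in WT and 5.63% in *LApc*, and goblet-like cells 3.34% and 2.61%. Within 8000 to 16000 UMIs, enterocyte-like cells held 6.85% and 5.97%, and goblet-like cells 3.85% and 4.09%. The part of depth was not tested.

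Adenoma-enriched cells were then compared with crypt cells of their own library, which share germline alleles, mouse and preparation. The 2 classes need not share the Cre-made deletion, which was not tested in crypt cells. In *LApc*, the members lay lower as a block. The log2 ratio of the sum was -0.47 (-0.48 to -0.47), and 56 of 75 members (74.7%) were called lower, against 20% of all genes. *Ndufa6* alone was called higher. The median over the members was -0.47, and over all genes 0.17. At 1.5-fold, 26 of 75 members (34.7%) were called lower, against 11.5% of all genes, and none higher. Lower calls were made for 21 of 36 complex I members, 4 of 4 in complex II, 7 of 8 in complex III, 11 of 11 in complex IV and 13 of 16 in complex V. All 12 mt- genes were lower too, with a summed log2 ratio of -0.53.

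Values of single members in *LApc* show the range. *Cox7b*, a small subunit of complex IV, stood at 1039 CPM in crypt and 567 CPM in adenoma-enriched cells, a log2 ratio of -0.87 (-0.92 to -0.83). *Ndufa5* stood at 405 and 224 CPM (-0.86), and *Cox7a1* at 58.9 and 30.2 CPM (-0.96). *Cox8a* stood at 2296 and 1566 CPM. Against these, *Ndufa6* stood at 474 and 679 CPM, a log2 ratio of 0.52 (0.47 to 0.57). *Ndufs4*, another matrix-arm accessory subunit, had a ratio of 0.12, and *Ndufa7* of 0.09.

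In *LApcL*, adenoma-enriched and crypt cells held the members at nearly equal levels. The log2 ratio of the sum was -0.02 (-0.02 to -0.02), and 2 of 75 members were called lower (*Ndufb11* and *Atp5sl*), against 13.5% of all genes. Both were also lower in *LApc*. *Ndufa6* again had the highest ratio, 0.30, followed by *Ndufs5* (0.25) and *Ndufb2* (0.18). Of the mt- genes, 5 of 12 were lower, with a summed ratio of -0.31. The *LApcL* crypt class, like the other classes of that library, also held adenoma transcripts such as *Sox17*. Their source, and its part in this near-equal level, were not tested.

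Other lists in adenoma-enriched cells of *LApc* moved in their own ways. Glycolysis and lactate genes were higher for 13 of 17 and lower for 1 in *LApc* and the same numbers in *LApcL*, where 37.9% and 28.7% of all genes were higher. *Pkm*, the last kinase of glycolysis, rose in *LApc* from 210 CPM in crypt to 940 CPM in adenoma-enriched cells. The lactate exporter gene *Slc16a3* stood at 4.40 and 155 CPM. Of 7 subunits and carriers that the symbol rule leaves out, 5 were lower in *LApc*, against 20% of all genes. Among them, *Cyc1*, the cytochrome c1 of complex III, stood at 652 and 380 CPM, and *Cox4i1*, a core-associated subunit of complex IV, at 2376 and 1609 CPM. *Ppargc1b*, a coactivator of respiratory genes, stood at 35.0 and 7.57 CPM, and *Tfam* at 108 and 45.7 CPM. These genes were chosen after their values were seen. No count over the regulators of mitochondrial gene expression is given for this comparison, so they do not describe that list. The related coactivator *Ppargc1a* is not compared between these classes. Ribosomal protein genes were lower for 50 of 80.

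Adenoma-enriched cells of *LApcL* were last set against those of *LApc*. These libraries differ by floxed *Lef1*, and also by mouse and by day (21 for *LApcL*, 29 for *LApc*), which cannot be told apart. Members were higher in *LApcL* as a block. The log2 ratio of the sum was 0.38 (0.37 to 0.38), a 1.30-fold difference, and 47 of 75 members (62.7%) were called higher, against 11.6% of all genes. None was lower, where 26.4% of all genes were. The median was 0.37 over the members and -0.09 over all genes. At 1.5-fold, 7 of 75 members were called higher, against 3.28% of all genes, and none lower. Of the 56 members lower in adenoma-enriched than in crypt cells of *LApc*, 41 were among these 47. Both sets rest on the *LApc* adenoma-enriched cells, and the same overlap over all genes was not computed.

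All complexes took part. Higher calls were made for 19 of 36 members of complex I, 3 of 4 of II, 5 of 8 of III, 9 of 11 of IV and 11 of 16 of V, with ratios of the sum of 0.27, 0.36, 0.44, 0.45 and 0.40. *Atp5k* stood at 343 CPM (*LApc*) and 643 CPM (*LApcL*), a log2 ratio of 0.91 (0.86 to 0.96). *Ndufa5* stood at 224 and 360 CPM (0.69), and *Uqcr11*, a small subunit of complex III, at 696 and 1087 CPM (0.64). These are the members with the highest ratios, and the first 2 were among the 14 members lower than WT in crypt cells of both Cre libraries. *Ndufs4* (265 and 245 CPM), *Ndufa6* (679 and 654 CPM) and *Ndufv3* (257 CPM in both) had the lowest ratios, -0.11, -0.05 and 0.00.

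**Figure D4:**
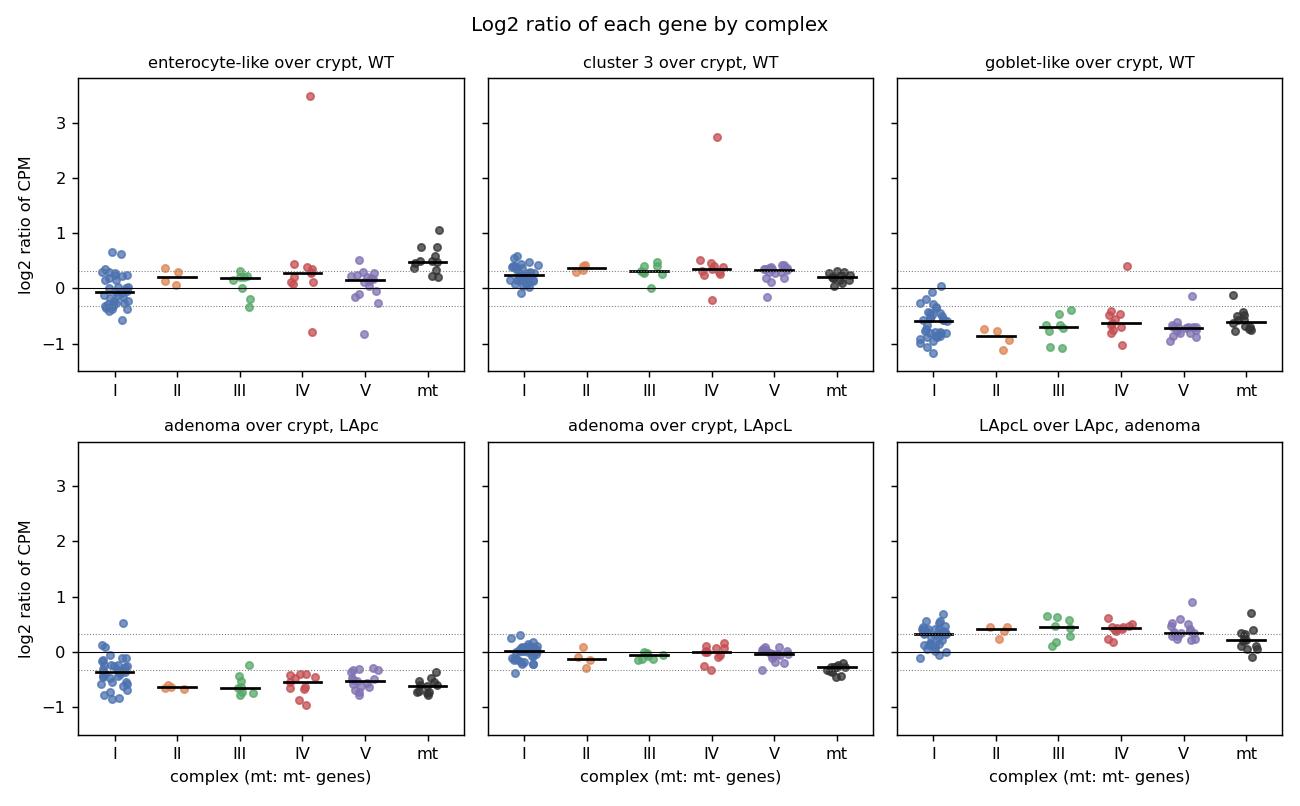
Log2 ratio of CPM of each of the 75 members by complex, with the mt- genes beside them, for the comparisons named above the panels; points are genes, bars are medians and dotted lines mark the size needed for a call. Goblet-like cells and *LApc* adenoma-enriched cells lie below crypt cells in every complex, *LApcL* adenoma-enriched cells lie above those of *LApc*, and *Cox7a1* is the outlying point of complex IV.

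The mt- genes moved less. Their summed ratio was 0.08, and 4 of 12 were called higher, the highest being *mt-Atp8*, a small complex V subunit, at 90.4 and 148 CPM (0.71). The ratio of mt- to nuclear UMIs was 1.01 in *LApc* and 0.816 in *LApcL* adenoma-enriched cells.

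**Figure D5:**
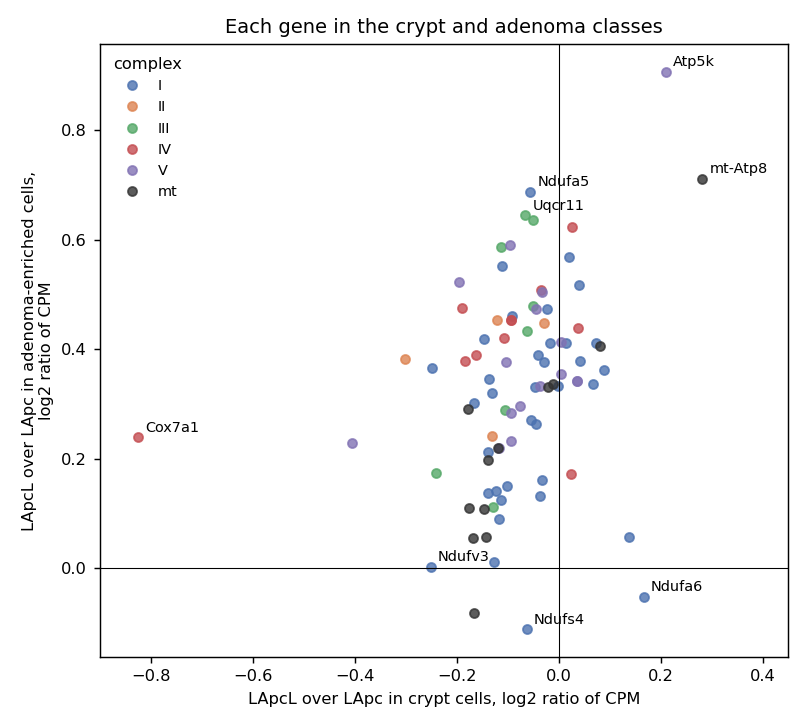
Log2 ratio of CPM of *LApcL* over *LApc* in crypt cells (horizontal axis) and in adenoma-enriched cells (vertical axis), with 1 point per member or mt- gene, colored by complex. Members lie near 0 in crypt cells, more of them below than above it, and mostly above 0 in adenoma-enriched cells, with *Atp5k* at the top and *Ndufs4* at the bottom.

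Depth and subcluster were taken in turn. Median depths of adenoma-enriched cells were 7524.5 UMIs in *LApc* and 11720 UMIs in *LApcL*. Within cells of 8000 to 16000 UMIs the members held 3.89% in *LApc* and 4.92% in *LApcL*, and within 4000 to 8000 UMIs 3.64% and 4.57%. The 2 larger subclusters, led by *S100g* and *Wfdc18*, gave log2 ratios of 0.30 with 32 members higher (6.91% of all genes) and 0.46 with 54 higher (15.4%). In both, 30 members were higher, and the share of all genes higher in both was not computed. In the small *Atp4a*-led subcluster, with 67 cells in *LApc* and 378 in *LApcL*, the ratio was -0.12.

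The same pair of libraries was compared in the other classes. In crypt cells the ratio was -0.08, with 2 members lower (16.5% of all genes), and in enterocyte-like cells -0.06, with 3 lower (9.09%). It was 0.00 in cluster 3 and -0.01 in tuft-like cells. Goblet-like cells gave 0.32 with 40 members higher, close in share to adenoma-enriched cells, although 31.9% of all genes were higher there. Enteroendocrine-like cells gave 0.26 with 28 higher (21.9%). Goblet-like cells of 8000 to 16000 UMIs held the members at 4.09% in *LApc* and 4.08% in *LApcL*. Within 4000 to 8000 UMIs their shares were 2.61% and 2.87%. Over all depths, the higher level in *LApcL* was thus seen in adenoma-enriched, goblet-like and enteroendocrine-like cells, with Paneth-like cells left out. Whether it differed between these classes, and the part of depth in the latter 2, were not tested. In *LApcL*, *Sox17* stood at 27.2 CPM in goblet-like and 109 CPM in enteroendocrine-like cells, and the part of this was not tested either.

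In the adenoma-enriched cells, glycolysis and lactate genes went the other way, with 10 of 17 lower in *LApcL* and 1 higher, where 26.4% and 11.6% of all genes were called so. *Eno1*, an enolase, stood at 529 and 284 CPM, and *Slc16a3* at 155 and 68.9 CPM. Against the same shares, ribosomal protein genes had a summed ratio of 0.25, with 16 of 80 higher. *Cyc1* stood at 380 and 607 CPM and *Cox4i1* at 1609 and 2072 CPM, and 4 of 7 genes of that list were higher. Assembly factors were higher for 9 of 39 and lower for 2, and TCA cycle enzymes higher for 4 of 14. *Tfam* stood at 45.7 and 70.6 CPM and *Ppargc1b* at 7.57 and 17.3 CPM, whereas *Ppargc1a* stood at 11.4 and 4.23 CPM. Here too, no count over the regulators of mitochondrial gene expression is given, so these genes do not describe that list.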

How the data were processed

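The authors prepared droplet 3′ libraries (kit version v2 or v3, not stated per library) and quantified them with Cell Ranger 2.1.1 on mm10. They deposited UMI counts for every gene and barcode, without normalization. The authors' cell annotation was not used here, so classes were rebuilt. After the study's stated filters, barcodes in the top or bottom 1% of genes detected or above 20% mitochondrial UMIs were removed, as were the highest Scrublet (scanpy 1.11.5) scores at 0.8% per 1000 barcodes, because its automatic threshold marked 3 cells of *LApc*. That left 10138, 9601 and 14394 cells. Seurat 5.3.0 (R 4.3.3) integrated the libraries and clustered them (957 features, 20 components, 20 neighbours, resolution 0.2), with the members, mt- genes and related lists left out of the features. Clusters were named from marker lists, and Wnt/TA-like clusters with under 10% WT after equal weighting were called adenoma-enriched.

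Counts were summed per library and class and scaled to CPM of all UMIs, with exact Poisson intervals, and ratios carry the exact conditional binomial interval (scipy 1.17.1). Cells are not replicates, so no p-value was computed. Genes with a mean of 10 CPM or more entered the calls. The text names the 3 highest and 3 lowest ratios where they fit, the most abundant member of each complex, the paralog groups and, of the related lists, genes with a known role, chosen after their values were seen. *Cox7a2l*, *Atp5s* and *Atp5sl* match the rule but are no classical subunits. The members and lists were chosen with earlier results of these data known. Scripts were checked on simulated counts. The 4 main comparisons were repeated with other mitochondrial limits, without doublet removal, with other totals, clusterings and call thresholds, and after thinning to 3000 UMIs. Values of 1 member are not reported here.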

Additional observations from a re-analysis of the deposited data

Results flagged for a closer look

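Barcodes removed for their mitochondrial share lie outside the comparisons. Their ratio of mt- to nuclear oxidative phosphorylation UMIs was 13.8 in *LApc* and 9.99 in *LApcL*, above the 6.50 of WT. They numbered 2212, 320 and 62.

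The mt- sum of tuft-like over crypt cells took opposite directions between libraries, with log2 ratios of -0.12 (WT), 0.18 (*LApc*) and 0.039 (*LApcL*). The difference between libraries was not tested, and the *LApc* class held 69 cells.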

How the results depend on the processing

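Of 80 recomputed values, 46 stayed within the counting interval or, for counts, within 1.5 times; 1 changed sign. No paired analysis was possible because each genotype had 1 library. The windows of depth and the adenoma subclusters were chosen after seeing the data. Enterocyte-like over crypt cells in WT (0.12, 17 members called) gave 0.16 at a mitochondrial limit of 10%, 0.10 without a limit, 0.11 without doublet removal, 0.16 with mt- genes out of the total, -0.20 and 30 members with ribosomal genes out as well, 0.22 at clustering resolution 0.4, 0.30 and 40 members by marker score, 0.17 at 8000 to 16000 UMIs, and 5 members at 1.5-fold. *LApc* over WT crypt cells (-0.21, 15 members) gave -0.20 at the 10% limit, -0.17 and 8 members without mt- and ribosomal genes, -0.19 and 8 by marker score, -0.21 after thinning, -0.12 at 8000 to 16000 UMIs, and 1 member at 1.5-fold. *LApcL* over *LApc* adenoma-enriched cells (0.38, 47 members) gave 0.37 without doublet removal, 0.47 without mt- and ribosomal genes, 0.39 by marker score, 0.34 at 8000 to 16000 UMIs, 0.30 and 0.46 in the *S100g*-led and *Wfdc18*-led subclusters, and 7 members at 1.5-fold. Adenoma-enriched over crypt cells in *LApc* (-0.47, 57 members) gave -0.49 at the 10% limit, -0.46 without doublet removal, -0.50 without mt- genes, -0.65 without mt- and ribosomal genes, -0.46 by marker score, -0.45 after thinning, -0.52 at 8000 to 16000 UMIs, and 26 members at 1.5-fold. The cause was not tested. Among these settings, shares of all genes were computed at 1.5-fold and in the adenoma subclusters only, so the other counts have no background. At resolution 0.4 the enterocyte-like class took in cells of cluster 3. The spread between mice is unknown, and with this depth the counting intervals are far narrower than the changes from other processing.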

Other observations

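Within crypt cells, those with cycling markers held the members at slightly higher levels than the others in each library, with log2 ratios of the sum of 0.13, 0.20 and 0.15 for WT, *LApc* and *LApcL*. The mt- genes did not share this, at -0.06, -0.07 and -0.08. *Atp5k* stood at 959, 579 and 667 CPM in cycling and 802, 449 and 559 CPM in non-cycling crypt cells. Cycling cells were also deeper: their medians were 12020, 8057 and 10808.5 UMIs per cell against 9036.5, 5934 and 7569.

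Nuclear and mt- shares were hardly related from cell to cell within crypt cells, with Pearson r of -0.03 over 2965 WT cells, -0.07 over 2107 *LApc* cells and 0.03 over 1810 *LApcL* cells, the nuclear share being taken of non-mt UMIs. In goblet-like cells r was 0.27, 0.09 and 0.25. The cells share library and depth, and r between the nuclear share and log10 UMIs was 0.38, 0.44 and 0.40 in crypt cells.

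Enterocyte-like cells held 2 clusters, which differed in the members. The *Apoa4*-high cells held 7.08% of UMIs in WT, 5.69% in *LApc* and 5.35% in *LApcL*, and the *Fabp6*-high cells, which express the bile acid binding protein of the ileum, 5.34%, 3.63% and 4.16%. *Cox7a1* stood at 759, 513 and 424 CPM in the former and 402, 235 and 262 CPM in the latter, which was lower in each library.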
